A study of Mus musculus with 5 samples.

Results

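Levels of 9 genes of the early neural lineage were followed through RNA-seq libraries of mouse fibroblasts and pluripotent cells. The genes were taken by symbol, and all 9 were found among the 24421 genes of the deposited tables. They are Sox1, Sox3, Pax3, Pax6, Zic1, Hes5, Neurog2, Nes, and Tubb3. Each condition was 1 library, which gives no replicate error and no test. The 5 libraries were MEFs (fibroblasts of CF-1 mouse embryos, without treatment), iPSCs (induced pluripotent stem cells), V6.5 cells without shRNA (the mESCs, an embryonic stem cell line of the mouse), V6.5 cells carrying a nontargeting control shRNA (NTC), and V6.5 cells carrying an shRNA against Gldc (shGldc). NTC and shGldc cells share the parental line and carry an shRNA in the pLKO vector, and each stands for 1 culture. By the protocol in the sample labels, the stem cells grew in serum replacement medium with leukaemia inhibitory factor, without feeder cells. The paper also describes mouse stem cell culture on feeder cells in serum, and does not state which culture was sequenced. The MEFs grew in serum. How the sequenced iPSC line was made is not given in the sources used here. The level of Gldc itself, the gene under knockdown, was 74.7 FPKM in NTC and 2.07 FPKM in shGldc cells.

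In the embryo, the neural plate forms from epiblast cells that keep SoxB1 factors on and switch pluripotency factors off. Sox1 marks the step into neuroectoderm, whereas Sox3 and Sox2 are already present in the epiblast. Pax3, Pax6, and Zic1 divide the neural plate and tube into territories, Notch signalling through Hes5 keeps progenitors undifferentiated, and Neurog2 starts neuronal differentiation. Nestin, the product of Nes, is an intermediate filament of progenitors, and Tubb3 is the beta tubulin of young neurons. Several of these genes have other sites of expression: Nes in mesenchyme, muscle, and vessels, Pax3 in muscle precursors and neural crest, and Zic1 in mesenchyme of the trunk.

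Upstream sequences were taken from RefSeq (GRCm38.p6) as the 250 bases before the annotated start, and 7 members had an entry, Pax6 with a pair of starts. Sox3 and Pax3 had none. Of 32851 such windows of all genes, the median held 6 CG dinucleotides. The members held from 8 (Neurog2) to 32 (Hes5), with 29 in Sox1, 27 in Zic1, 21 in Tubb3, and 15 in Nes and at both Pax6 starts. Thus, all windows of these 7 genes were above the median of all windows. The window of Neurog2 is shown as the one with the fewest, with each CG in capitals, and that of Hes5, with the most, follows. The Neurog2 window lies on the plus strand at chr3:127632886-127633135.
Neurog2: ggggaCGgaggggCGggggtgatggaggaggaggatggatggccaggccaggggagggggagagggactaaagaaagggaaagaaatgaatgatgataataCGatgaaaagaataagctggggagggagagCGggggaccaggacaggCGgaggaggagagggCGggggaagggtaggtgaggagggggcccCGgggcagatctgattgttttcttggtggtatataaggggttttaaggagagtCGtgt

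Hes5 is a direct target of Notch, and its window is shown because Notch pathway genes are described with it. RBPJ, the DNA-binding partner of the Notch intracellular domain, recognises a core of TGGGAA, which was searched on both strands, and capitals mark each match (TTCCCA is the match on the minus strand). The window lies on the plus strand at chr4:154960673-154960922.
Hes5: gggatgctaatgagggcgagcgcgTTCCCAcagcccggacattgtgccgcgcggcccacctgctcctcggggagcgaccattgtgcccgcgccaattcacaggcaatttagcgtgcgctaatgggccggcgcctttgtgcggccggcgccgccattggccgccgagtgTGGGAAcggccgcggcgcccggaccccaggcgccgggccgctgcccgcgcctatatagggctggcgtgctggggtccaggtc
The matches begin 226 and 82 bases before the start. At least 1 match was found in 21.6% of all windows and 2 or more in 2.77%. No match was found in the windows of the other 6 members with an entry. A match is a match of letters and does not show binding.

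Levels are in FPKM, which divides fragments by transcript length and by library size, so levels of different genes can be compared per length. The libraries held about 22200000 to 24700000 fragments in MEFs, iPSCs, and V6.5 cells, estimated from the spacing of low values. The estimate was 29100000 fragments for NTC and 28900000 fragments for shGldc. A wider spacing, which also held many of the low values, would give 11100000 to 16400000 fragments in the 5 libraries, and fragment numbers and intervals below rest on the narrower one. Pluripotency markers summed to FPKM of 3790 to 7066 in the pluripotent libraries and 25.4 in MEFs, and 10 fibroblast markers summed to 8200 in MEFs and 97.4 to 169 elsewhere. The untreated V6.5 library stood apart in collagen genes: Col1a1 had an FPKM of 20.5 in V6.5 cells against 0.125 to 1.68 in the other pluripotent libraries, and Col3a1 had 3.21 against 0 to 0.0965. Of the macrophage markers, C1qa was at 52.7 in MEFs and 0 to 0.197 elsewhere. Adgre1, Csf1r, C1qb, and C1qc were also highest in MEFs, and Ptprc was below 1 FPKM in each library. Cd68 was at 18.7 in MEFs and 9.04 to 19.9 elsewhere. Of the endothelial markers, Emcn was at 9.96 in MEFs and listed at 0 elsewhere. Pecam1, also a gene of pluripotent cells, was listed at 0 in MEFs and was at 14.7 to 31.7 elsewhere. MEFs, iPSCs, and V6.5 cells are in one table, and NTC and shGldc are in another made separately. A ratio is given as the difference of log2(FPKM + 0.1), which understates the change of low genes, and a gene was called changed at 2-fold or more where one of the pair of libraries reached 1 FPKM. In bulk RNA, fewer cells that express a gene and less RNA per cell cannot be told apart.

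**Figure D1:**
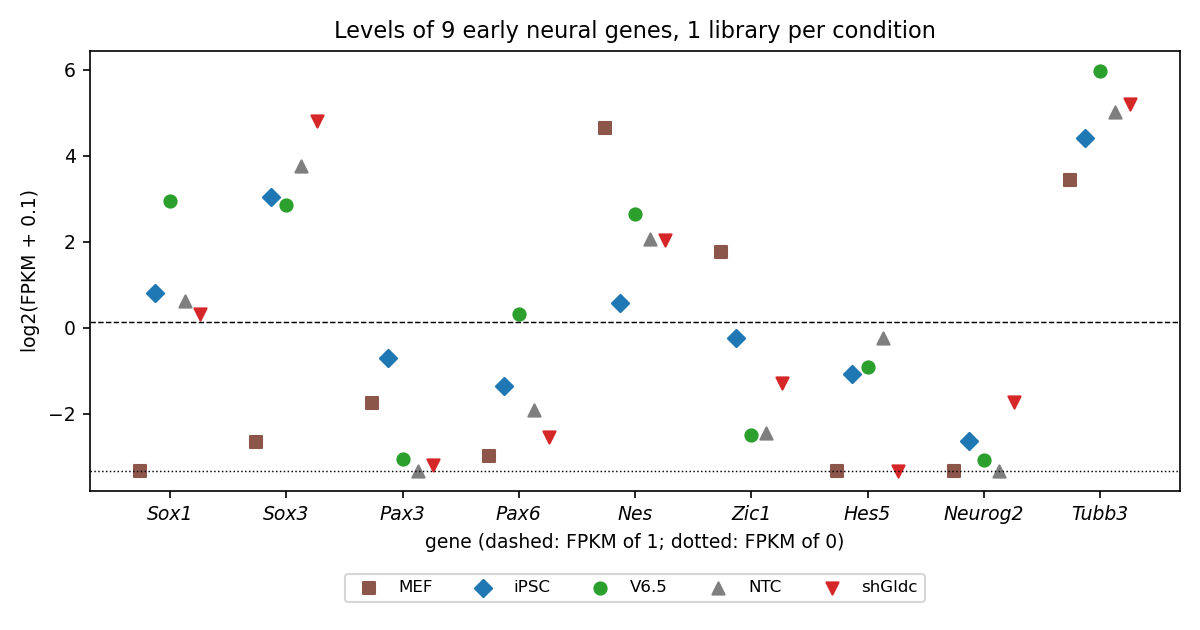
Level of each of the 9 genes as log2(FPKM + 0.1), with 1 point per library (MEF, iPSC, V6.5, NTC, and shGldc). Points on the dotted line are listed at 0. Nes and Zic1 are highest in MEFs, and Sox1, Pax6, and Tubb3 are highest in V6.5 cells.

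Sox1 and Sox3 were present in each pluripotent library and at or near 0 in MEFs. Sox1, a SoxB1 transcription factor, is a gene of 1 exon on the plus strand of chromosome 8 (12395295 to 12400126, GRCm38) and lies within the long noncoding gene Sox1ot, which is annotated on the same strand and whose reads may be counted with it. The library kit does not mark strand, so reads of opposite-strand neighbours of other members cannot be told apart either. The FPKM of Sox1 was listed at 0 in MEFs and was 1.66 in iPSCs, 7.62 in V6.5 cells, 1.43 in NTC cells, and 1.15 in shGldc cells. Untreated V6.5 cells therefore stood above the other pluripotent libraries, which lay close to each other. Of the 1996 genes with an FPKM from 5 to below 10 in V6.5 cells, 55 (2.76%) were listed at 0 in MEFs, as Sox1 was.

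Sox3, the SoxB1 gene of the X chromosome (60891366 to 60893430, minus strand, 1 exon, no overlapping gene), had an FPKM of 0.0591 in MEFs, 8.16 in iPSCs, 7.13 in V6.5 cells, 13.4 in NTC cells, and 27.8 in shGldc cells. The MEF value corresponds to about 3 fragments. Sox3 was 121-fold higher in V6.5 cells than in MEFs (95% interval 41.1 to 590.3, exact binomial, counting error only) and 138-fold higher in iPSCs (47.1 to 675). iPSCs and V6.5 cells differed by 1.14-fold, and the highest value was that of shGldc cells.

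The other SoxB genes put these levels in scale. Sox2, the SoxB1 factor of the pluripotency network, had an FPKM of 0.643 in MEFs, 251 in iPSCs, 197 in V6.5 cells, 223 in NTC cells, and 130 in shGldc cells, the highest of the family in each library. Sox21, a SoxB2 gene that opposes SoxB1 activity in neural progenitors, was at 0.0267 in MEFs and 3.77 to 5.28 in the pluripotent libraries. Sox1 made up 3.52% of the summed SoxB level in V6.5 cells and 0.591% to 0.704% in the other pluripotent libraries. The share of Sox3 was 3.07% in iPSCs, 3.30% in V6.5 cells, 5.54% in NTC cells, and 17.0% in shGldc cells, in which Sox3 was at its highest and Sox2 at its lowest among the pluripotent libraries.

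Zic1, a zinc finger factor of the dorsal neural tube, was highest in MEFs. It lies on the minus strand of chromosome 9 (91358058 to 91365810) and overlaps its neighbour Zic4, on the opposite strand. Its FPKM was 3.31 in MEFs, 0.754 in iPSCs, 0.0787 in V6.5 cells, 0.0824 in NTC cells, and 0.312 in shGldc cells. Thus, it was 42.1-fold lower in V6.5 cells and 4.40-fold lower in iPSCs than in MEFs.
Its relatives Zic2 and Zic5 were lowest in MEFs instead. The level of Zic2 was 0.975 in MEFs and from 4.24 to 20.0 in the pluripotent libraries, and that of Zic5 was 0.118 in MEFs and from 1.22 to 4.79 in the others.

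**Figure D2:**
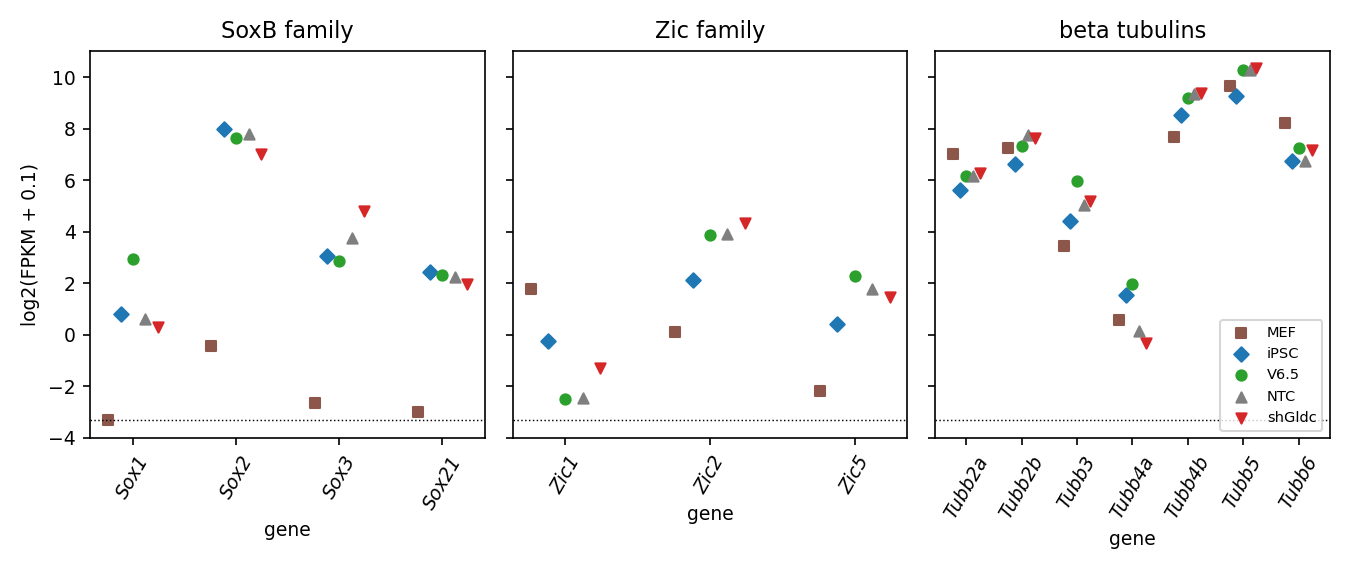
Levels of named SoxB, Zic, and beta tubulin genes that reached an FPKM of 1 in at least 1 library, as log2(FPKM + 0.1) with 1 point per library. Sox1, Sox2, Sox3, and Sox21 are lowest in MEFs, Zic1 is highest there while Zic2 and Zic5 are lowest, and Tubb3 lies below most other beta tubulins.

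The Pax members were low in all 5 libraries. Pax6, a homeodomain factor of the eye, forebrain, and ventral neural tube on chromosome 2 (105668900 to 105697364, plus strand, overlapping the antisense gene Pax6os1), had an FPKM of 0.0256 in MEFs, 0.292 in iPSCs, 1.15 in V6.5 cells, 0.166 in NTC cells, and 0.0725 in shGldc cells. V6.5 was the only library in which Pax6 reached an FPKM of 1, and its level was 3.94-fold that of iPSCs. In MEFs, the value stands for about 3 fragments, so the ratio of 44.9 for V6.5 cells over MEFs has an interval of 14 to 206.
Pax3, a factor of the dorsal neural tube, neural crest, and somites on chromosome 1 (78101267 to 78197134, minus strand), had 0.195 in MEFs, 0.511 in iPSCs, 0.0205 in V6.5 cells, and 0.00894 in shGldc cells, and was listed at 0 in NTC cells. No library reached an FPKM of 1. Its highest level was in iPSCs, at about 44 fragments against 2 in V6.5 cells, a ratio of 24.9 (6.41 to 209).
Of the 9 Pax genes, 3 reached an FPKM of 1 in any library, each in a single one: Pax6 in V6.5 cells, Pax8, a kidney and thyroid factor, at 1.61 in iPSCs, and Pax1, a sclerotome factor, at 1.56 in MEFs.

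Hes5, a basic helix-loop-helix repressor induced by Notch, lies on chromosome 4 (154960923 to 154962371, plus strand), and 21.8% of its 50-base stretches also occur in Gm20421, which is annotated on the opposite strand. Its FPKM was 0.373 in iPSCs, 0.427 in V6.5 cells, and 0.746 in NTC cells, and it was listed at 0 in MEFs and in shGldc cells. Its level in each library was below an FPKM of 1, and it passed the filter in no comparison. Of 1183 genes with an FPKM from 0.5 to below 1 in NTC cells, 110 (9.30%) were likewise listed at 0 in shGldc cells.
Neurog2, the proneural factor on chromosome 3 (127633135 to 127635631, plus strand, no overlapping gene), had the lowest peak level of the members. Its FPKM was 0.0612 in iPSCs, 0.0183 in V6.5 cells, and 0.204 in shGldc cells, and it was listed at 0 in MEFs and NTC cells. The values in iPSCs and V6.5 cells amount to about 3 and 1 fragments, at or under the floor of 3 fragments, so no ratio is given between them.
Neurog1, a proneural factor of sensory lineages, was higher than Neurog2 in each pluripotent library, with 3.15 in iPSCs, 0.895 in V6.5 cells, 0.684 in NTC cells, and 3.35 in shGldc cells.

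Nes was highest in MEFs and above an FPKM of 1 in each pluripotent library. It lies on chromosome 3 (87971078 to 87980451, plus strand, no overlapping gene). Its FPKM was 24.9 in MEFs, 1.38 in iPSCs, 6.17 in V6.5 cells, 4.10 in NTC cells, and 4.02 in shGldc cells. NTC and shGldc cells were within 1.02-fold, and iPSCs had the lowest level. V6.5 cells held 24.8% of the MEF level of Nes, whereas they held 0.559% of that of Col1a1, 0.689% of Col1a2, and 0.563% of Col3a1, genes of fibrillar collagens. Over the 10 fibroblast markers, the share of the MEF level in V6.5 cells ranged from 0.559% to 9.21%, with a median of 2.32%. In NTC cells, Nes was at 16.5% of its MEF level. The markers there ranged from 0% (Col3a1, Dcn, and Lum) to 8.94% (Fn1), with a median of 0.470%. In iPSCs, Nes was at 5.56%, within the range of the markers, which reached 22.1% for Twist1.
Vim, the intermediate filament gene of mesenchyme with which nestin assembles, fell further: its FPKM was 3074 in MEFs, 5.79 in iPSCs, 70.2 in V6.5 cells, 154 in NTC cells, and 129 in shGldc cells. The neurofilament gene Nefl was lowest in MEFs, with 0.239 in MEFs, 10.0 in iPSCs, 8.77 in V6.5 cells, 27.2 in NTC cells, and 72.9 in shGldc cells. Ina, alpha-internexin, was listed at 0 in MEFs with 5.53 to 9.98 in the pluripotent libraries.

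**Figure D3:**
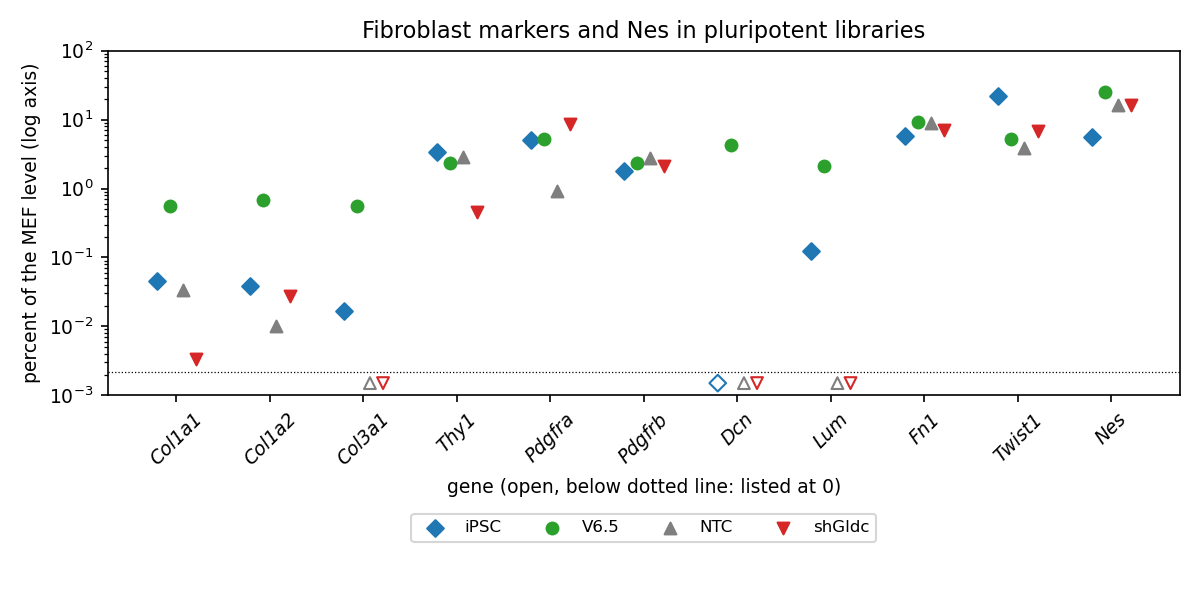
Level of 10 fibroblast markers and Nes in the pluripotent libraries, as a percentage of the MEF level on a log axis, with open symbols for genes listed at 0. Nes lies between 5.56% (iPSCs) and 24.8% (V6.5 cells), and Col1a1, Col1a2, Col3a1, Dcn, and Lum are higher in V6.5 cells than in the other libraries.

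Tubb3 was the most abundant member in each pluripotent library. It lies on chromosome 8 (123411424 to 123422015, plus strand) and overlaps Gm20388, annotated on the same strand. Its FPKM was 10.7 in MEFs, 21.1 in iPSCs, 62.7 in V6.5 cells, 32.5 in NTC cells, and 36.5 in shGldc cells. The order was V6.5, shGldc, NTC, iPSC, and MEF, and shGldc and NTC cells were within 1.12-fold.
Among 8 beta tubulin genes, Tubb3 ranked at number 6 in each library. Its share of the summed beta tubulin level was 0.668% in MEFs, 1.66% in iPSCs, 2.78% in V6.5 cells, 1.41% in NTC cells, and 1.51% in shGldc cells. Tubb5, the broadly expressed gene, was the highest in each library, at an FPKM of 623 to 1296.

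The comparison of pluripotent cells with MEFs asked how far the neural genes follow the change of cell identity. For V6.5 cells over MEFs, 6 members passed the filter. At least 2-fold higher were 4 of them (Sox1, Sox3, Pax6, and Tubb3), as were 30.3% of all 12840 genes tested, and 2 were at least 2-fold lower (Nes and Zic1), as were 23.3% of all genes. Members could pass through the library in which they were high, so these counts only describe them. The log2 ratios were 5.51 for Sox3, 3.32 for Pax6, 2.54 for Tubb3, -1.99 for Nes, and -4.26 for Zic1, and the median of all genes was 0.25. Of all calls, 56.5% were higher calls, against 48.2% with equal FPKM totals.
For iPSCs over MEFs, 5 members passed. Sox1 and Sox3 were at least 2-fold higher (31.5% of all 13032 genes were), and Nes and Zic1 were at least 2-fold lower (21.3% of all genes were). Tubb3, at 0.98, lay just under the threshold. The log2 ratios were 5.70 for Sox3 and -4.07 for Nes, and Zic1 was 4.40-fold lower. Of all calls in iPSCs over MEFs, 59.7% were higher calls, against 48.3% after each library was set to an equal total of FPKM, and the 4 members called kept their direction under that scaling.

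**Figure D4:**
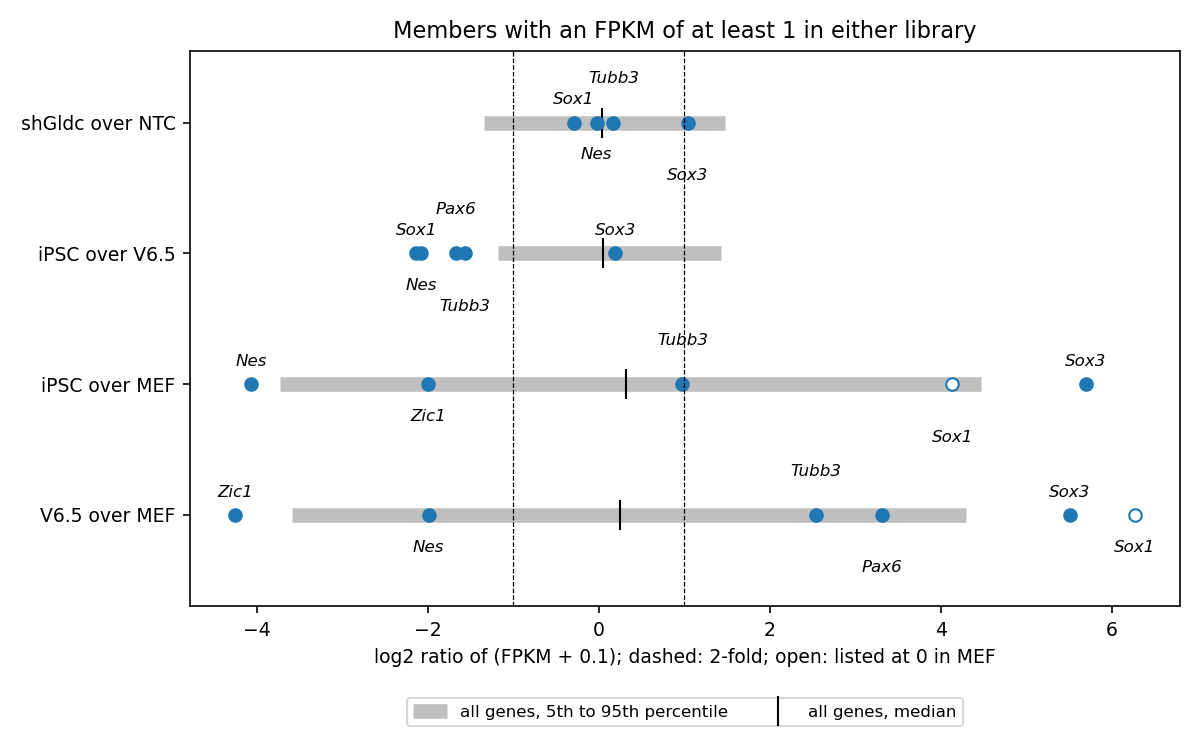
Log2 ratio of each member that reached an FPKM of 1 in either library, for each comparison, with the range from the 5th to the 95th percentile of all genes tested (grey) and their median (tick). Open circles are genes listed at 0 in MEFs. In iPSCs over V6.5 cells, Sox1, Nes, Pax6, and Tubb3 lie below the 5th percentile.

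In iPSCs, Sox1, Pax6, Nes, and Tubb3 were lower than in the untreated V6.5 library. Of 5 members that passed in iPSCs over V6.5 cells, 4 were at least 2-fold lower in iPSCs, as were 7.44% of all 12323 genes, and 0 were at least 2-fold higher, as were 10.1% of all genes. Pax6 passed only through V6.5 cells, and without the filter 2 members, Pax3 and Zic1, were at least 2-fold higher in iPSCs, so the counts only describe the members. The log2 ratio was -2.14 for Sox1, -2.08 for Nes, -1.67 for Pax6, and -1.57 for Tubb3, each beyond the 5th percentile of all genes, -1.19. With a pseudocount of 1, Pax6 was at -0.73 and no longer 2-fold lower. Sox3, at 0.19, was close to the median of 0.04. Below the filter, Pax3 was at 0.511 in iPSCs and 0.0205 in V6.5 cells, and Zic1 at 0.754 and 0.0787. With 1 library of iPSCs and 1 of untreated V6.5 cells, the line, the culture, and the library cannot be told apart in this comparison.
The NTC and shGldc libraries, though made into a separate table, show where the V6.5 library stood. Sox1 was 7.62 in V6.5 cells against 1.15 to 1.66 in iPSCs, NTC, and shGldc cells, Pax6 was 1.15 against 0.0725 to 0.292, Nes was 6.17 against 1.38 to 4.10, and Tubb3 was 62.7 against 21.1 to 36.5. Otx2, a homeobox factor of the epiblast and anterior neural plate, was also highest in this library, with 11.5 against 0.304 to 0.592. The other epiblast markers did not follow Otx2 as a set. Dnmt3b, Foxd3, and Sox3 were lowest in V6.5 cells among the pluripotent libraries, and Pou3f1, Lef1, and Zic2 were within the range of the others. Fgf5 was highest in V6.5 cells, at 0.405. Pou5f1 was within the range of the others, at 1055 against 915 to 1215. Thus, the untreated V6.5 library was above the other pluripotent libraries in 4 of the 9 members, below them in Sox3 and, by about 11 fragments against 13 in NTC cells, in Zic1, and within their range in Pax3, Hes5, and Neurog2. Of 5 members that reached 1 FPKM in a pluripotent library, 4 were highest in it and 1 was lowest, beside 23.9% and 21.3% of 12811 genes. Pax6 is counted only because of its level in V6.5 cells, so these counts too only describe the members. Of the 10 fibroblast markers, 6 (Col1a1, Col1a2, Col3a1, Dcn, Lum, and Fn1) were also highest in the untreated V6.5 library among the pluripotent ones, and 4 (Thy1, Pdgfra, Pdgfrb, and Twist1) were within the range of the others. Col1a1 was at 20.5 against 0.125 to 1.68, and Fn1, which made up most of their sum, was at 115.6 against 73.4 to 112. The part of fibroblast RNA in the differences of the members was not tested. Over 12048 genes, log2 ratios between the NTC and the untreated libraries had a robust SD of 0.59, which also holds the difference between the tables. The log2 ratio of the 5 members at 1 FPKM or more was, in NTC against V6.5 cells, -2.33 for Sox1, -2.23 for Pax6, -0.95 for Tubb3, -0.58 for Nes, and 0.90 for Sox3, and that of Nes alone among them was no larger than this spread.

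The comparison of shGldc with NTC cells asked how the members differed after knockdown of Gldc. Sox3 was the only member of the 4 that passed to be at least 2-fold higher, as were 8.97% of all 11969 genes, and 0 were at least 2-fold lower, as were 7.68% of all genes. Sox3 went from 13.4 to 27.8, a log2 ratio of 1.04, just over the threshold, and the ratio was 0.995 with a pseudocount of 1. Between untreated V6.5 and NTC cells, in separate tables, Sox3 already differed by 0.90 on this scale. The log2 ratio was -0.30 for Sox1, -0.03 for Nes, and 0.17 for Tubb3, all smaller in size than the robust SD of 0.59. That spread is one over all genes between NTC and untreated V6.5 cells, in separate tables, and is no error of these ratios. Of the members under the filter, Zic1 went from 0.0824 to 0.312, Pax6 from 0.166 to 0.0725, Pax3 from a listed 0 to 0.00894, Neurog2 from a listed 0 to 0.204, and Hes5 from 0.746 to a listed 0.

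Notch pathway genes were examined beside Hes5. Of 18 genes, 14 passed the filter in shGldc over NTC, of which 4 were at least 2-fold lower and 0 at least 2-fold higher, with a median log2 ratio of -0.52 against 0.04 for all genes, of which 7.68% were lower and 8.97% higher. The 9 pluripotency markers had a median of -0.57 in the same comparison, with 0 called. The lower genes were Lfng, a glycosyltransferase that modifies Notch, from an FPKM of 1.58 to 0.178, Dtx1, a Notch-binding ubiquitin ligase, from 7.23 to 1.3, Mfng, a relative of Lfng, from 14.7 to 3.28, and the receptor gene Notch4 from 7.44 to 1.99. The DNA-binding factor gene Rbpj had a ratio of -0.49 and the ligand genes Jag1 and Jag2 had -0.92 and -0.25, none of them past the threshold. Hes1, the Hes gene with the highest level, was at 32.2 in NTC and at 25.2 with shGldc. Hes6, which counteracts Hes1, was at 16.0 and 14.9.
In V6.5 cells over MEFs, 15 Notch pathway genes passed, with 8 higher and 3 lower (30.3% and 23.3% of all genes). Jag2 went from 0.0190 to 17.9, whereas the coactivator gene Maml2 went from 3.46 to 0.0652 and Jag1 from 20.6 to 0.941. Hes1 was at 54.1 in MEFs, 50.5 in iPSCs, and 37.6 in V6.5 cells.

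**Figure D5:**
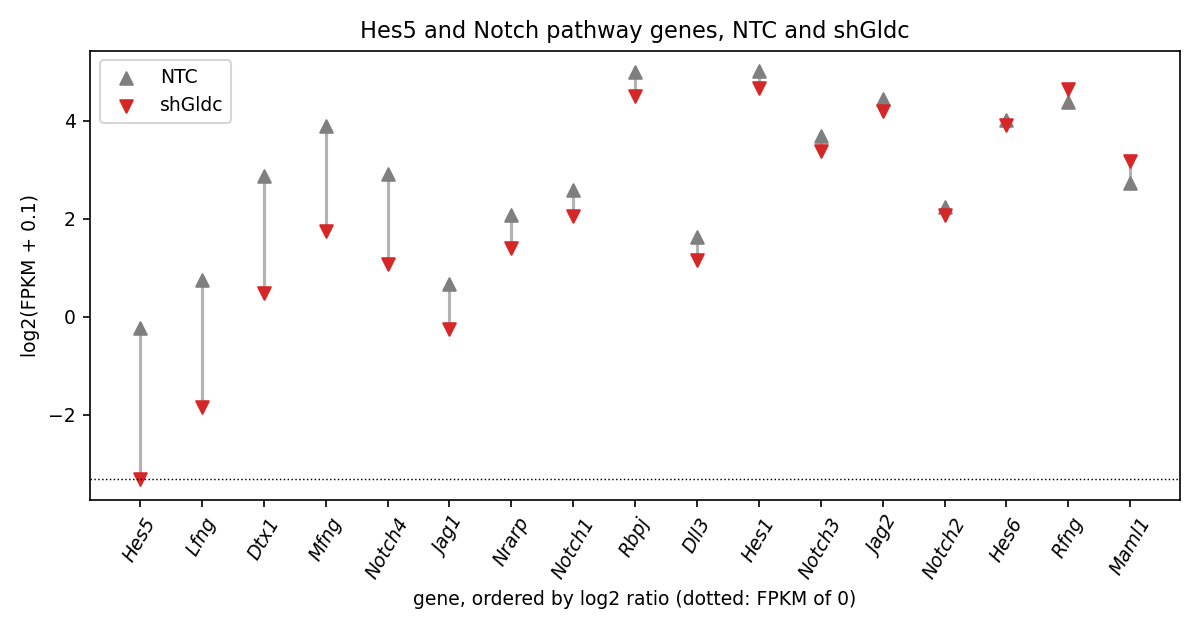
Levels of Hes5 and of Notch pathway, Hes, and Hey genes at 1 FPKM or more in NTC or shGldc cells, as log2(FPKM + 0.1), ordered by the log2 ratio. Hes5 is listed at 0 in shGldc cells, and Lfng, Dtx1, Mfng, and Notch4 are lower in shGldc cells by at least 2-fold.

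Other genes of the neural lineage were counted from lists, beside 8.97% of all genes higher and 7.68% lower in shGldc over NTC. Of 14 proneural and related basic helix-loop-helix genes, 4 passed in shGldc over NTC. Neurog1 (0.684 to 3.35) and Olig3 (0.251 to 1.31) were higher, and Olig1 (20.8 to 9.56) and Olig2 (15.5 to 6.62), factors of the oligodendrocyte lineage, were lower. Of 29 neural patterning factors, 15 passed, with 5 higher and 3 lower and a median log2 ratio of -0.03. The largest rise was that of Msx1, a dorsal and mesenchymal homeobox gene, from 0.107 to 14.9, followed by Meis1 (0.25 to 1.82) and Meis2 (0.984 to 4.42). The largest fall was that of Pou3f1, a factor of the epiblast and neural plate, from 7.02 to 1.01, followed by En2 (4.49 to 2.16) and Gbx2 (50.6 to 25.1), genes of the midbrain and hindbrain. Of 19 neuronal genes, 8 passed, with Dpysl3 higher (3.95 to 10.1), and Stmn2 (91.6 to 36.2), Gap43 (3.59 to 0.829), and Crmp1 (7.46 to 1.20) lower, and a median of -0.68. Dcx, a gene of migrating neurons, was listed at 0 in NTC cells and had 0.0321 in shGldc cells. Beta tubulins, Tubb3 included, showed 0 calls among 7 that passed, and of 9 neural crest and Schwann cell markers 5 passed, with Sox10 (1.59 to 0.0513) and Tfap2a (1.74 to 0.237) lower.
In V6.5 cells over MEFs, 21 of the patterning factors passed, with 7 higher and 12 lower, beside 30.3% and 23.3% of all genes. Otx2 and En2 were listed at 0 in MEFs, and Gbx2 went from 0.168 to 15.4. In the other direction, Fabp7, a lipid-binding protein of radial glia, went from 4.84 to 0.0532, Emx2, a cortical homeobox gene, from 6.39 to 0.123, and Sox9 from 4.44 to 0.0929. Of 8 epiblast markers, which include Sox3, 7 passed and all 7 were higher in V6.5 cells than in MEFs. Only Foxd3 among them reached 1 FPKM in MEFs, so the filter fixed the direction of the others. Fgf5 did not pass and was at 0.650 in MEFs and 0.405 in V6.5 cells. In MEFs, skeletal muscle markers were low, with 1 of 8 (Des, 35.2) at 1 FPKM or more and Pax7 listed at 0. Neural crest and Schwann cell markers summed to 13.0 in MEFs and 30.3 to 59.5 in the pluripotent libraries.

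For the 6 members that reached an FPKM of 1 in any library, the genes with the closest profile over the 5 libraries were found among 13656 genes, as the root mean square distance of centred log2 levels. With 5 points, such matches are a description, and they say nothing of shared function. Among the closest were Thrsp (0.40) and Rasgrp2 (0.44) for Sox1, 1700061G19Rik (0.24) and Folr1 (0.29) for Sox3, Adcy5 (0.11) and Dnah1 (0.30) for Pax6, Eml1 (0.19) and Scd1 (0.21) for Nes, Cryab (0.13) and Nr2f1 (0.19) for Zic1, and Fgd1 (0.14) for Tubb3. Folr1, a folate receptor, had an FPKM of 63.4 in NTC and 201 in shGldc cells, and Nr2f1, a nuclear receptor of neural and mesenchymal cells, had 3.30 in MEFs and 0.0781 to 0.803 in the pluripotent libraries.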

How the data were processed

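Each condition was 1 library of total RNA, and the 5 libraries were grouped by their labels. The authors aligned the reads by TopHat2 (mm10) and used StringTie for assembly and Ballgown for gene levels. They deposited FPKM values per gene in 2 tables (versions in the submitters' notes: TopHat2 2.1.0, StringTie 1.3.4d). The gene annotation, strand setting, and filters are not given in the sources used here. The column of the knockdown names only an shRNA and was assigned through its table and the control beside it.

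From these values, ratios were computed as differences of log2(FPKM + 0.1) for genes that reached 1 FPKM in one of the libraries, with a threshold of 2-fold. Calls were made within a table only, and values set across the tables are given side by side, with the NTC and untreated V6.5 libraries also used for the spread of all genes. The genes and lists were chosen with earlier results of these data known. Named were all 9 members, family genes that reached an FPKM of 1, and up to 3 genes with the largest rise or fall of each longer list. Notch4, Rbpj, Jag1, and Jag2 in shGldc cells, Hes1, Dcx, and the single markers were named after their values were seen. So were the epiblast and pluripotency markers set beside V6.5 cells. Depth was estimated from low values of single-transcript genes that lie at whole multiples of a step (tolerance 1%), and a floor of 3 fragments was used. Intervals of 95% are exact binomial and cover counting error only. The step search and the calls were tested on simulated data. Positions and overlaps are from GENCODE M21, and upstream sequences from RefSeq. Alternatives were pseudocounts of 1 and 0.01, no filter or a minimum of 5 FPKM, rescaled libraries, and centred ratios. Python 3.11.15, numpy 2.4.6, pandas 2.3.3, and matplotlib 3.10.9 were used. Results on some genes of a family or among the closest profiles are not reported here.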

Additional observations from a re-analysis of the deposited data

Results flagged for a closer look

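Pax3 was higher in iPSCs and lower in V6.5 cells than in MEFs, but it passed the filter in neither comparison. Its log2 ratio was 1.05 in iPSCs over MEFs and -1.29 in V6.5 cells over MEFs, from an FPKM of 0.511 in iPSCs, 0.195 in MEFs, and 0.0205 in V6.5 cells. The comparisons share the MEF library, each side is 1 library, and the difference was not tested. The V6.5 value stands for about 2 fragments, and the fold of 9.52 for MEFs over V6.5 cells has an interval of 2.30 to 84.4.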

How the results depend on the processing

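No paired analysis was possible because each condition was 1 library and the result comes from no test. Without a filter on FPKM, the members at least 2-fold higher numbered 5 for iPSCs over MEFs, 2 for iPSCs over V6.5 cells, and 3 for shGldc over NTC, and 1 (Hes5) was lower for shGldc over NTC. At a minimum of 5 FPKM, 1 was higher for iPSCs over MEFs, and 1 each was lower for V6.5 cells and iPSCs over MEFs, since fewer genes were tested. With a pseudocount of 1, 0 members were higher for shGldc over NTC. The other 40 counts stayed within 1.5 times, of which that of members lower in iPSCs than in V6.5 cells went from 4 to 3 without Pax6, both with a pseudocount of 1 and at a minimum of 5 FPKM. Of 113 ratios of members under an alternative, 15 moved by more than 0.59, under a changed pseudocount, and 0 changed sign among those past 2-fold. Over all genes, the calls of shGldc over NTC were 1074 higher and 919 lower, 1996 and 1842 without a filter, 475 and 322 at a minimum of 5 FPKM, and 654 and 538 with a pseudocount of 1. Those of iPSCs over V6.5 cells were 1241 and 917, 2015 and 1461, 634 and 502, and 753 and 556. Rescaling moved the median log2 ratio of all genes from 0.25 to -0.01 for V6.5 cells over MEFs and from 0.31 to -0.01 for iPSCs over MEFs, and Tubb3 in iPSCs over MEFs was then at 0.67. Ratios over 2 or 3 fragments have the wide counting intervals given with them.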
